A study of Canis lupus familiaris with 30 samples.

Results

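The genes described here encode the machinery that copies DNA and the enzymes that supply its building blocks: the origin recognition complex and the licensing inhibitor geminin, the firing kinase and the GINS and CDC45 parts of the replicative helicase, the polymerases and primase, the sliding clamp and its loader, the single-strand binding and lagging strand proteins, the fork protection proteins, the proteins that copy chromatin and methylation, and the enzymes of nucleotide supply. The list held 46 genes chosen by function, though with earlier results of these data known, and the MCM helicase genes were left out. A gene ID was found for 34 of the 46, among 32704 gene IDs in all. The other 12 (CDC6, CDT1, DBF4, PRIM1, POLD3, POLE, RFC4, RFC5, RNASEH2A, CHAF1B, DNMT1 and TK1) were not analysed here.

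A cell licenses its origins before S phase, when the origin recognition complex loads the MCM helicase onto DNA. Kinases then fire the origins, CDC45 and GINS join MCM to form the moving helicase, and polymerases extend both strands behind it while PCNA, a ring around the DNA, holds them in place. Deoxynucleotides come from ribonucleotide reductase and thymidylate synthase, and genes for most of these proteins are transcribed under E2F control as cells enter S phase. In lymph nodes their RNA is known mainly from dividing lymphocytes.

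Cells were drawn by fine needle from swollen lymph nodes of 15 dogs that had lymphoma, once at the six-week timepoint, 6 weeks into CHOP chemotherapy (cyclophosphamide, doxorubicin, vincristine and prednisone), and once at the initial timepoint, just before treatment. The labels give 3 dogs as T-cell lymphoma (dogs 028, 036 and 038), 7 as B-cell lymphoma (003, 027, 029, 030, 033, 034 and 037) and 5 as unknown (024, 025, 026, 031_032 and 035). No dog was followed without treatment, so that treatment and the passing of time cannot be told apart. An aspirate holds whatever cells the needle collected, and in such bulk samples fewer cells of a type and less RNA per cell cannot be told apart. The values are FPKM, read numbers scaled for transcript length and library size, and differences are on the log2(FPKM + 1) scale, on which the change of a low gene is understated.

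Libraries held 4318394 to 43413353 counted reads, and the median library held 13153569 at the six-week and 19045310 at the initial timepoint. The FPKM of a library summed to 769268 to 2253173, with the highest sum in the six-week library of dog 033 and the next, 1540381, in that of dog 036, which was also the shallowest library. In 9 dogs the counts ranked genes as the FPKM did, with Spearman correlations across genes of 0.880 to 0.984 per library. In the other 6 dogs (024, 027, 028, 029, 030 and 035) these correlations were 0.0868 to 0.117, and counts under the gene IDs of those dogs were not used. The gene IDs were read from tables sorted by p-value, and 29 of the 34 members have theirs in a table of changes over time in a group of dogs that the study formed by clustering these same expression data and also compared for survival (the exceptions are ORC2, ORC3, ORC5, RFC1 and TIMELESS). The labels do not say which dogs were in which cluster. The split by counts and FPKM used here has the same size and the same makeup of labels as the study's (2 T-cell, 4 B-cell and 3 unknown dogs among the 9, and 1, 3 and 2 among the 6), so that file handling, transcriptional cluster and outcome cannot be told apart between the 9 and the 6 dogs. Members with small p-values over time are favoured by this source of IDs, most likely through the 9 dogs, and counts of members that changed over time are given below as a description, from which nothing is read about the members against other genes.

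Marker genes were checked against the labels at the initial timepoint. The mean log2(FPKM + 1) of 5 T-cell markers (CD3D, CD3E, CD5, CD28 and LCK) was 6.33 and 6.51 in T-cell dogs 028 and 036, and that of 2 B-cell markers (PAX5 and CD22) was 1.74 and 0.73. Dog 038, labelled T-cell, had 2.6 for the T-cell and 6.09 for the B-cell markers. The B-cell dogs other than 029 had T-cell markers at 2.04 to 3.59 and B-cell markers at 5.35 to 6.64. Dog 029, labelled B-cell, had 5.96 and 4.89. The markers of dog 038 thus went against its label and those of dog 029 held both lineages, so that results between the labels are given with and without these dogs.

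Among the members, levels differed widely between genes. Over the 30 libraries PCNA had the highest median, 210.5 FPKM, and POLD1, the catalytic subunit of polymerase delta, the lowest, 3.11 FPKM. RRM1, the large subunit of ribonucleotide reductase, had a median of 67.3 FPKM, and RRM2, the small subunit, of 22.6 FPKM. The subunits of the origin recognition complex had median FPKM of 52.1 (ORC2), 44.8 (ORC6), 22.4 (ORC3), 18.8 (ORC1) and 16.4 (ORC5). They also differed in how far they ranged over the libraries. The highest library of ORC3, ORC5 and ORC2 was 2.06, 2.54 and 2.87 times the lowest, and that of ORC1 and ORC6 was 12.4 and 13.9 times the lowest. ORC6 and ORC1 had the widest and ORC3 and ORC5 the narrowest range of the 34 members. The remaining members lay between these, with ratios of 2.68 for RFC1 and GINS3 to 10.6 for CLSPN.

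The first comparison was of the six-week with the initial timepoint in all 15 dogs. Values of 33 of the 34 members were on average lower at the six-week timepoint, the exception being ORC2, and the median difference over members was -0.32 on the log2 scale. None of these differences passed the test with adjustment over all genes. By limma with the dog as a block, 0 members were lower and 0 higher at an adjusted p under 0.05, with adjusted p from 0.298 to 0.972, and 20 members had an unadjusted p under 0.05. Over all 14257 genes tested, limma also called 0 lower (0%) and 0 higher (0%), with 1823 at an unadjusted p under 0.05, a median difference of -0.01 and 51.4% of differences below 0. Without the filter on low FPKM, limma called 4 members lower (PCNA, POLA1, POLA2 and RPA1) and 0 higher, beside 0.116% of 32008 genes lower and 9.43% higher.

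**Figure D1:**
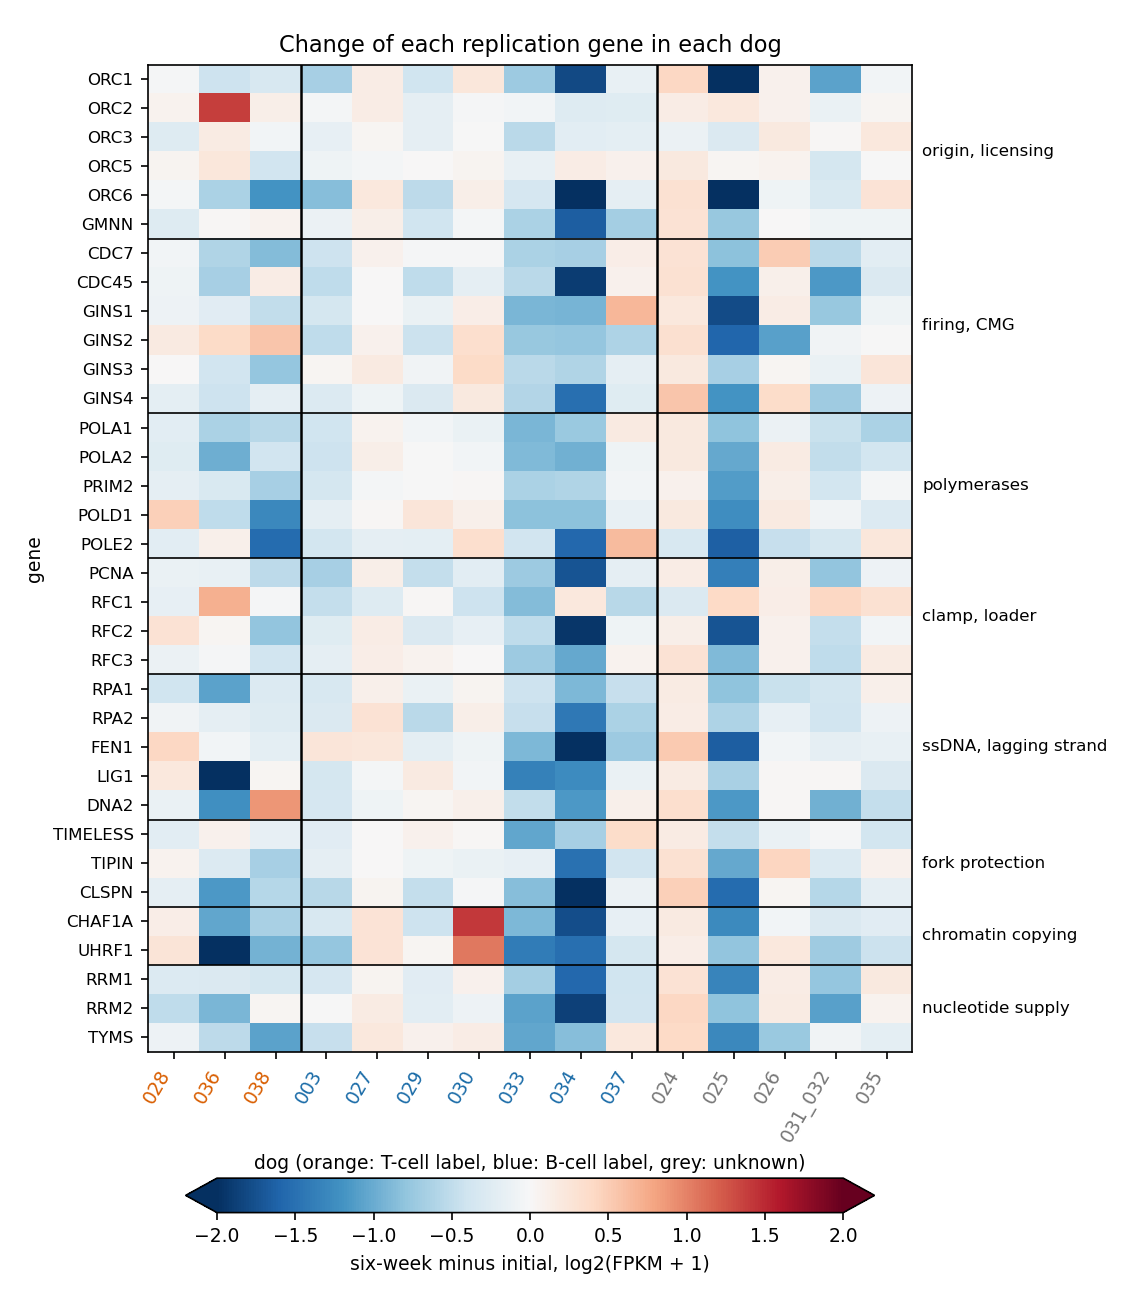
Change of each of the 34 genes (rows, grouped by role) in each of the 15 dogs (columns, grouped by label), as six-week minus initial log2(FPKM + 1); blue is lower and red higher at 6 weeks, and colors stop at -2 and 2. The columns of dogs 025, 033 and 034 are blue in nearly every row, that of dog 024 is mostly pale red, and the rows of ORC2, ORC3 and ORC5 are pale in most dogs.

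Among the origin and licensing genes, ORC1 and ORC6 had lower values at 6 weeks and the other subunits differed little. ORC6, a subunit of the origin recognition complex, had a lowest, median and highest value of 6.93, 31.9 and 96.6 FPKM at the six-week timepoint, against 10.4, 51.4 and 78.3 FPKM at the initial timepoint. It was lower in 11 of 15 dogs, including all 9 whose counts follow the FPKM, and the timepoints overlapped over most of their range. The difference was -0.51 (SE 0.191, adjusted p = 0.316 from limma), a fold of 0.702. ORC1, the largest subunit, which binds ATP, had 2.64, 11.6 and 32.8 FPKM at 6 weeks, against 3.77, 21 and 29.3 FPKM before treatment. It too was lower in 11 dogs, with a difference of -0.45 (SE 0.173, adjusted p = 0.321 from limma). ORC2, ORC3 and ORC5, subunits that stay together in the core of the complex in human cells, had differences of 0.08, -0.09 and -0.01, and GMNN, which encodes geminin, the inhibitor that keeps origins from being licensed again, had -0.28. The median over the 6 genes was -0.19.

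Of the firing and helicase genes, CDC45, which bridges MCM and GINS in the moving helicase, had the largest difference. Its lowest, median and highest values were 2.21, 8.18 and 16.7 FPKM at 6 weeks, against 3.57, 11.7 and 19.02 FPKM before treatment. Values were lower in 10 of 15 dogs and higher in 5. The difference was -0.42 (SE 0.150, adjusted p = 0.307 from limma). The 4 GINS genes, whose proteins form 1 ring-shaped complex, were not at like levels. GINS3 had medians of 5.15 FPKM at 6 weeks and 5.45 FPKM before treatment, and GINS4 had 12.5 and 21.8 FPKM. Their differences were -0.31 (GINS4), -0.31 (GINS1), -0.27 (GINS2) and -0.15 (GINS3), and CDC7, the kinase that phosphorylates MCM to fire origins, had -0.26. The median over the 6 genes was -0.29.

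All 5 polymerase and primase genes had lower mean values at 6 weeks, with a median difference of -0.34. POLE2, the second subunit of polymerase epsilon, which extends the leading strand, had 13.4, 29.5 and 77.6 FPKM as lowest, median and highest value at 6 weeks, against 17.1, 39.97 and 98.8 FPKM before treatment. It was lower in 11 dogs, with a difference of -0.39 (SE 0.165, adjusted p = 0.344 from limma). POLA1 and POLA2, the catalytic and the regulatory subunit of the polymerase that starts each strand with primase, had -0.34 and -0.36 and were each lower in 12 dogs. The changes of single dogs had an SD of 0.362 for POLA1 and 0.429 for POLA2, wider than the mean change, and POLA1 had the lowest unadjusted p of all members, 0.00240. PRIM2, the large primase subunit, had -0.28, and POLD1 had -0.27 at a level of 3.20 FPKM or less in both medians.

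In the clamp and loader group, PCNA had 75.5, 187 and 356 FPKM as lowest, median and highest value at 6 weeks, against 108, 248 and 381 FPKM before treatment. The values overlapped between the timepoints, with lower values at 6 weeks in 12 dogs and higher ones in dogs 024, 026 and 027. Its difference was -0.45 (SE 0.136, adjusted p = 0.298 from limma), a fold of 0.734. RFC2, a small subunit of the loader that opens the clamp, had 11.8, 29.9 and 59.8 FPKM at 6 weeks, against 14.7, 44.4 and 56.4 FPKM before treatment, and a difference of -0.37 (SE 0.159, adjusted p = 0.346 from limma). RFC3, another small subunit, had -0.20. The large subunit RFC1 had -0.06 and was lower in 8 and higher in 7 dogs, with values of 21.7, 31.7 and 56.7 FPKM at 6 weeks, against 23.4, 36.7 and 58.2 FPKM before treatment.

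The 5 single-strand binding and lagging strand genes had differences of -0.39 to -0.30. LIG1, the ligase that joins Okazaki fragments, had 6.79, 18.6 and 35.0 FPKM as lowest, median and highest value at 6 weeks, against 12.5, 27.3 and 38.2 FPKM before treatment. Its difference was -0.39 (SE 0.173, adjusted p = 0.362 from limma), and 9 dogs were lower. FEN1, the nuclease that trims the flaps of Okazaki fragments, had 5.67, 16.2 and 39.3 FPKM at 6 weeks, against 6.67, 23.1 and 36.3 FPKM before treatment, with a difference of -0.33 (SE 0.179, adjusted p = 0.436 from limma). RPA1 and RPA2, subunits of the protein that coats single-stranded DNA, had -0.34 and -0.30 and were lower in 11 and 12 dogs. Both were lower in all 9 dogs whose counts follow the FPKM and in 2 and 3 of the other 6. DNA2, a nuclease and helicase that cuts long flaps, had -0.30.

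CLSPN, which encodes claspin, a mediator of the checkpoint that slows stressed forks, had the largest difference of the 34 members. Its values were 4.39, 17.6 and 46.7 FPKM as lowest, median and highest at 6 weeks, against 6.51, 26.2 and 37.6 FPKM before treatment. The difference was -0.52 (SE 0.165, adjusted p = 0.303 from limma), a fold of 0.697, with lower values in 12 of 15 dogs. TIMELESS and TIPIN, which bind each other and travel with the fork, had -0.17 and -0.25. Of the 2 genes that copy chromatin and methylation, UHRF1, which brings the maintenance methyltransferase to newly copied DNA, had 7.51, 14.3 and 46.7 FPKM at 6 weeks, against 12.3, 21.2 and 55.9 FPKM before treatment. Its difference was -0.47 (SE 0.199, adjusted p = 0.345 from limma), and only 9 dogs were lower. CHAF1A, the large subunit of the factor that places histones behind the fork, had -0.34.

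Of the nucleotide supply genes, RRM2 had 9.01, 14.7 and 37.7 FPKM as lowest, median and highest value at 6 weeks, against 9.70, 24.7 and 39.9 FPKM before treatment. It was lower in 10 dogs, with a difference of -0.41 (SE 0.153, adjusted p = 0.316 from limma). TYMS, thymidylate synthase, which makes the thymine nucleotide of DNA, had 7.84, 21.9 and 41.1 FPKM at 6 weeks, against 13.3, 29.6 and 47.1 FPKM before treatment. Values of TYMS were lower in 10 dogs, and the difference was -0.36 (SE 0.134, adjusted p = 0.316 from limma). RRM1 had -0.36, close to the value of its partner RRM2, with SE of 0.133 and 0.153.

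**Figure D2:**
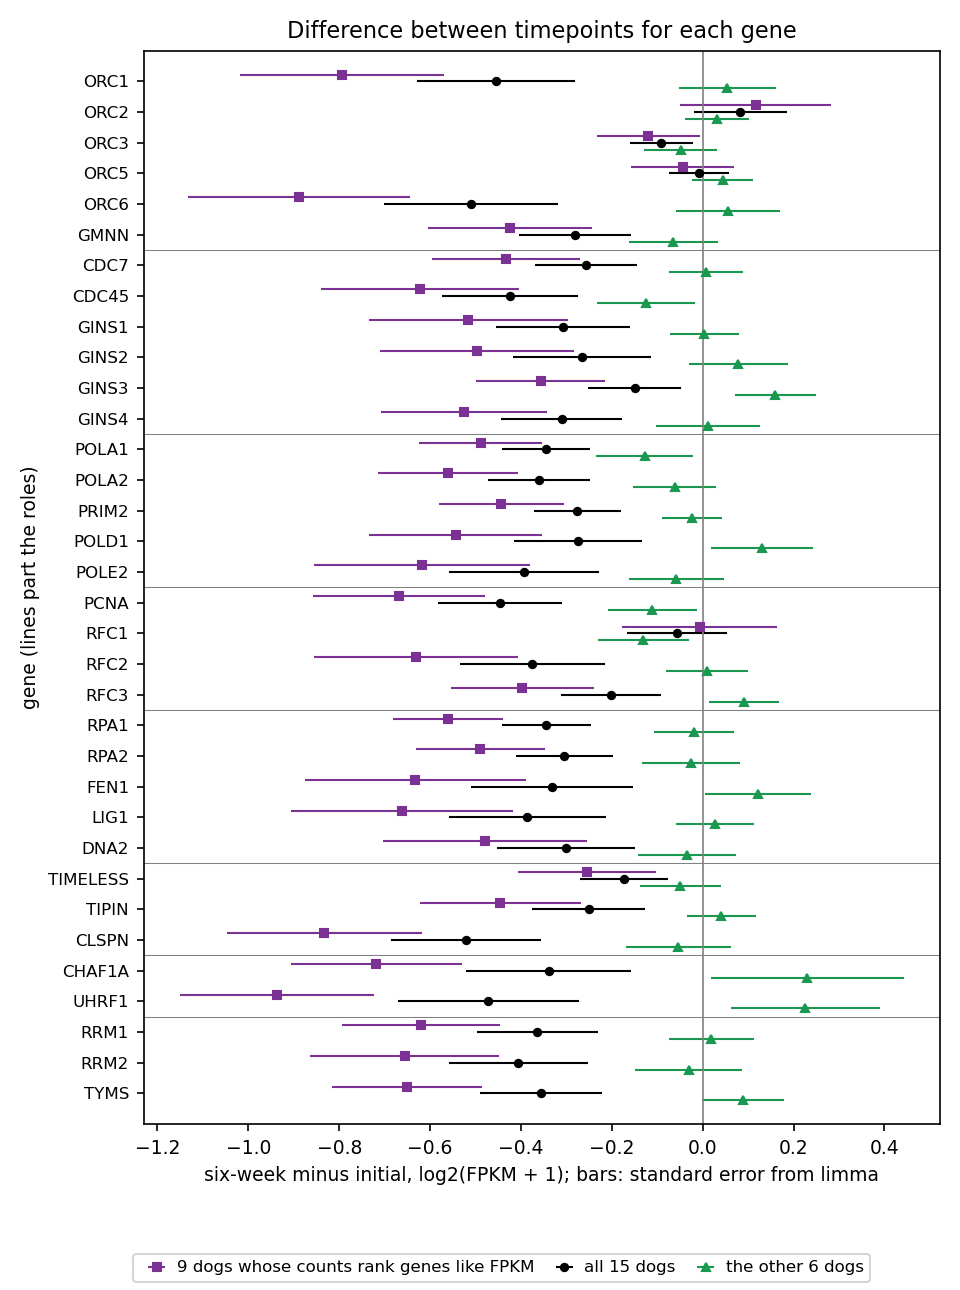
Difference between timepoints (six-week minus initial, log2(FPKM + 1)) of each gene, with standard errors from limma, for the 9 dogs whose counts rank genes like the FPKM (squares), all 15 dogs (circles) and the other 6 dogs (triangles). Circles lie between -0.52 for CLSPN and 0.08 for ORC2, and triangles lie on both sides of 0, between -0.13 and 0.23.

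The median changes of the dogs covered a wider range than the mean differences of the genes. The median change over the 34 members was below 0 in 11 dogs and above 0 in 4. It was -1.21 in dog 034 (32 of 34 members lower), -1.07 in dog 025 (31 lower), -0.70 in dog 033 (34 lower), -0.37 in dog 031_032 (31 lower) and -0.34 in dog 003 (32 lower). Dogs 038 and 036 had medians of -0.38 and -0.35 with 27 and 25 members lower. In dogs 037, 029, 028 and 035 it was -0.16 to -0.09. Dogs 030, 026 and 027 had 0.02, 0.08 and 0.08, and dog 024 had 0.20, with 31 of 34 members higher. Without dog 034 the median difference over members was -0.25, and without dog 024 it was -0.37, the ends of the range when any 1 dog was left out.

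In the 6 dogs whose counts do not follow the FPKM, the members' differences lay on both sides of 0. Of the 34, 15 had a difference below 0 and 19 above 0, with a median of 0.01 and a range from -0.13 (RFC1) to 0.23 (CHAF1A). By limma in these dogs, 0 members were lower and 0 higher and 0 had an unadjusted p under 0.05. Over all 14274 genes tested, limma called 0 lower (0%) and 0 higher (0%), with 807 at an unadjusted p under 0.05, and 40% of differences were below 0. PCNA had -0.11 (SE 0.0987), CLSPN -0.05 (SE 0.116) and RRM2 -0.03 (SE 0.117) in these dogs. UHRF1 and CHAF1A had 0.23 (SE 0.164) and 0.23 (SE 0.212), and the rest of the members lay between -0.13 and 0.16. In the 9 dogs, where the gene IDs probably favour members with small p-values, 33 members had a difference below 0 and the median was -0.53, with 0 called by limma and 28 at an unadjusted p under 0.05. Over the 14218 genes tested in these dogs, limma called 0 lower (0%) and 0 higher (0%), with 2339 at an unadjusted p under 0.05 and a median of -0.03. On the counts of these 9 dogs, edgeR called 0 members, with 29 at an unadjusted p under 0.05 and a lowest adjusted p of 0.0801, and over 16269 genes edgeR called 0 lower (0%) and 0 higher (0%), with 4137 at an unadjusted p under 0.05. DESeq2 called 17 lower and 0 higher, beside 2.31% of 23038 genes lower and 14.3% higher, on a scale where the median of all 31599 genes fitted was 0.63. Whether the 9 and the 6 dogs differ was not tested.

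**Figure D3:**
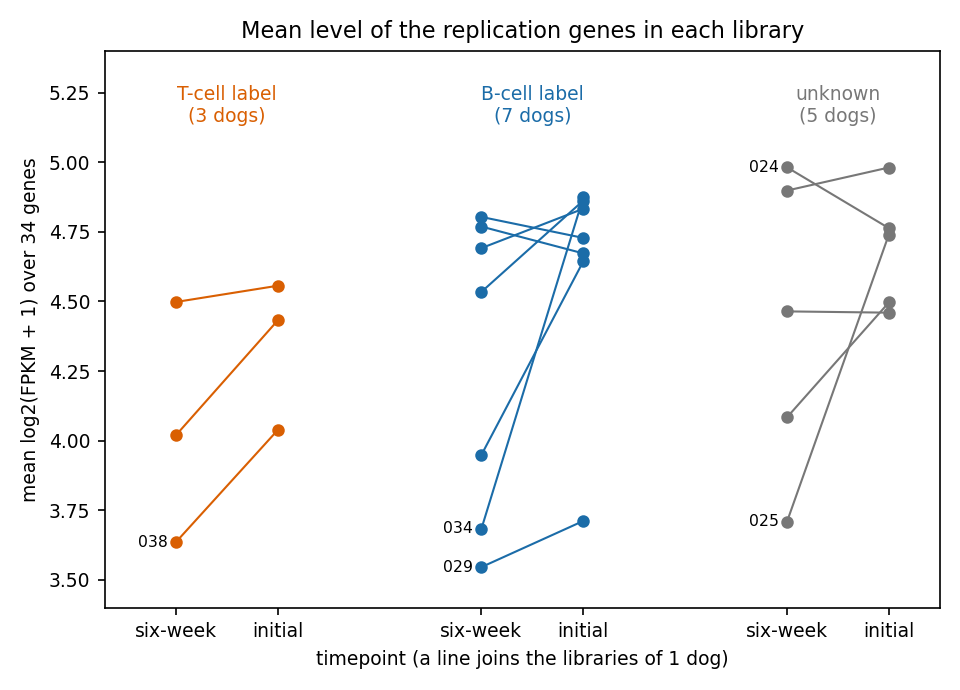
Mean log2(FPKM + 1) over the 34 genes in each library, six-week left of initial, with a line for each dog, in dogs labelled T-cell, B-cell and unknown. The lowest mean at 6 weeks is 3.55 in dog 029 and the highest 4.98 in dog 024, and the steepest lines are those of dogs 034 (3.68 at 6 weeks, 4.87 initially) and 025 (3.71 at 6 weeks, 4.74 initially).

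In some dogs markers of other cells were higher at 6 weeks while the members were lower. In dog 025 the T-cell marker mean was 5.72 at 6 weeks, against 2.29 before treatment, and the mean of 4 myeloid markers (CSF1R, MRC1, ITGAM and CSF3R) was 4.15 against 1.14. In dog 034 the T-cell mean was 5.73 at 6 weeks, against 3.59, and the myeloid mean 3.89 against 1.58. These dogs had the lowest member medians of all 15, and their B-cell marker means were also lower at 6 weeks, by 1.84 in dog 025 and 1.27 in dog 034. Dog 033 had the next lowest member median, with a T-cell change of -0.49 and a myeloid change of -0.35. Its other marker means were lower too, by -1.04 for B-cell, -0.46 for stroma and vessel and -0.27 for plasma cell markers. The mean of 12 mitosis genes changed by -0.70. Its FPKM summed to 2253173 at 6 weeks, against 1193609 before treatment, and the part of this in its values was not tested. The T-cell mean was higher by over 1 in 5 dogs and the myeloid mean in 4. Dog 003 had a T-cell change of 2.001 with a member median of -0.34, and dog 026 had 1.10 with 0.08. In dog 036, labelled T-cell, the T-cell change was -1.51, the myeloid change 1.86 and the B-cell change 3.52, with a member median of -0.35. Over all dogs, 5 of 5 T-cell markers (median 0.69) and 4 of 4 myeloid markers (median 0.53) had differences above 0 and 2 of 2 B-cell markers (median -0.29) below 0, with 0 called by limma. The 5 stroma and vessel markers tested (CDH5, COL1A1, COL3A1, PECAM1 and VWF, median 0.31) and 3 plasma cell markers (PRDM1, SDC1 and XBP1, median 0.28) were also all above 0, with 0 called. The stroma mean, over the 6 such genes with an ID, was higher by 1.77, 1.64 and 1.36 in dogs 038, 034 and 025, and the plasma cell mean by 3.09 and 1.75 in dogs 038 and 025. The summed FPKM was 23.5 to 495 at 6 weeks and 19.3 to 671 before treatment for the T-cell markers, 3.398 to 113 and 3.402 to 46.0 for the myeloid markers, and 3.30 to 197 and 1.42 to 221 for the B-cell markers. No marker was at 0 in all libraries. The part of the cell mix in the members' differences was not tested.

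**Figure D4:**
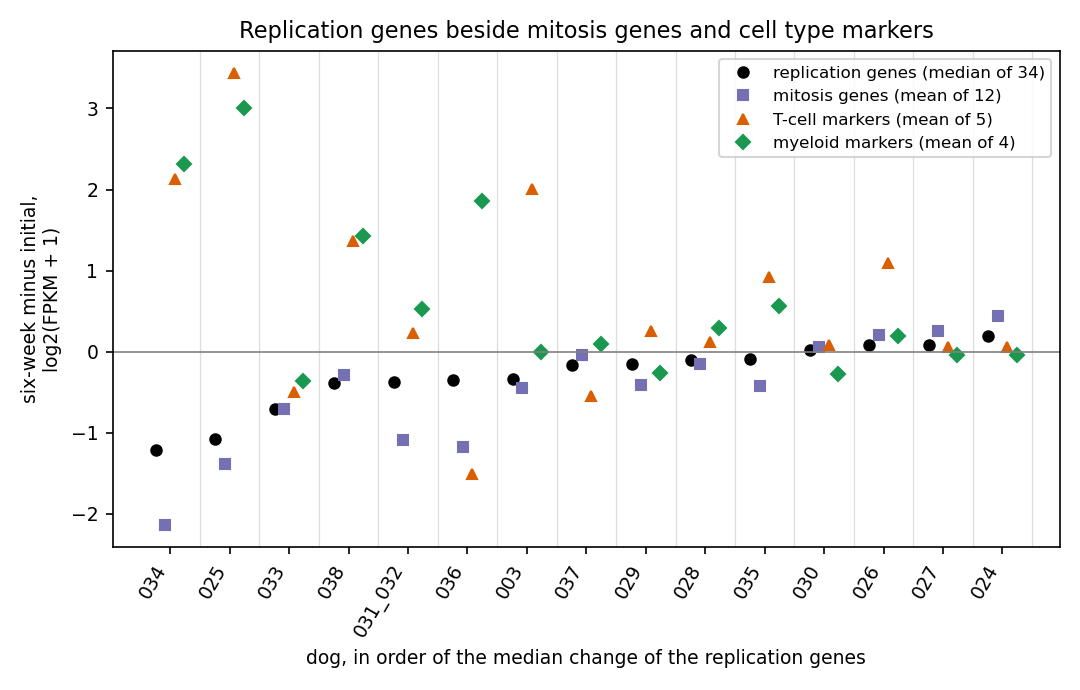
Six-week minus initial log2(FPKM + 1) in each dog, as the median over the 34 replication genes (circles), the mean over 12 mitosis genes (squares), over 5 T-cell markers (triangles) and over 4 myeloid markers (diamonds); dogs run in order of the circles, from -1.21 to 0.20. In dogs 034 and 025 the marker means are 2.13 to 3.43 higher at 6 weeks, while in dog 033 they are lower.

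Other genes of the same processes were read from lists of their own. Their gene IDs had the same source as those of the members, so the same favouring of small p-values applies to them. Of 29 further replication genes, 15 had a gene ID. By limma 0 of them were lower and 0 higher, 14 of 15 differences were below 0 and the median was -0.34. The MCM genes, which encode the helicase ring, and MCMBP, which binds it, had -0.47 (MCM5), -0.47 (MCM2), -0.45 (MCM6), -0.43 (MCM3), -0.30 (MCM7) and -0.21 (MCMBP). TOP2A, the topoisomerase that doxorubicin poisons, had -0.68 (adjusted p = 0.303 from limma), and ORC4, a core subunit of the origin recognition complex, had 0.16, close to the values of ORC2, ORC3 and ORC5. Of 30 further nucleotide genes, 10 had an ID, all 10 differences were below 0 and 0 were called, with a median of -0.24. DCK, the kinase that salvages deoxycytidine, had -0.48. Of 13 mitosis genes, 12 had an ID, all 12 had differences below 0 and 0 were called, with a median of -0.50. BUB1B, a spindle checkpoint kinase, had -0.68 and CENPF, a kinetochore protein, had -0.65, each larger than that of any of the 34 members. The mitosis mean also differed by dog, from -2.13 in dog 034 and -1.38 in dog 025 to 0.44 in dog 024. In the 6 dogs whose counts do not follow the FPKM, 9 of the 15 further replication genes had differences below 0 (median -0.02). The same held there for 1 of the 10 nucleotide genes (median 0.08) and 8 of the 12 mitosis genes (median -0.04).

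The next comparison was of the change over time within each label. In the 3 T-cell dogs the median difference over members was -0.28, with 30 of 34 below 0, in the 7 B-cell dogs -0.33, with 33 below 0, and in the 5 unknown dogs -0.29, with 31 below 0. By limma 0 members were lower and 0 higher in each, and 0 of 14257 genes were called lower (0%) or higher (0%) in any of the 3. Members with an unadjusted p under 0.05 numbered 2 in the T-cell dogs, 8 in the B-cell dogs and 0 in the unknown dogs, and all genes 2862, 548 and 650. The median difference of all genes was -0.09 in the T-cell dogs, 0.0043 in the B-cell dogs and 0.03 in the unknown dogs. Without dog 038 the members' median in the T-cell dogs was -0.20, and without dog 029 that in the B-cell dogs was -0.38. Without dog 025 the median in the unknown dogs was -0.07, with 22 below 0, and without dog 034 that in the B-cell dogs was -0.19. With FPKM scaled to the same sum in every library, the median in the T-cell dogs was -0.57, while that of all genes was -0.32. In the T-cell dogs plasma cell, stroma and vessel, and myeloid markers were also higher at 6 weeks. The median difference was 1.45 for 3 plasma cell markers, with 3 at an unadjusted p under 0.05. It was 1.19 for 5 stroma and vessel markers (3) and 1.13 for 4 myeloid markers (2). The 2 B-cell markers had a median difference of 0.52 (0). Their mean rose by 3.52 in dog 036 but changed by -0.37 in dog 028 and -1.60 in dog 038. Of all these markers 0 were called by limma. The part of these markers' cells in the members' differences was not tested.

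Of the 2 members in the T-cell dogs, RPA1 had 79.8, 44.1 and 23.4 FPKM at 6 weeks in dogs 028, 036 and 038, against 105, 93.8 and 28.4 FPKM before treatment. All 3 dogs were lower, with a difference of -0.58 (SE 0.224, adjusted p = 0.182 from limma). ORC2 had 37.5, 103 and 52.0 FPKM at 6 weeks, against 35.9, 38.9 and 47.8 FPKM before treatment, a difference of 0.52 (SE 0.204, adjusted p = 0.184 from limma). The largest change was that of dog 036, whose six-week library was the shallowest and had B-cell markers at 4.25, against 0.73 before treatment. In the B-cell dogs the lowest unadjusted p were those of GMNN (difference -0.49, SE 0.176), PCNA (-0.55, SE 0.207) and RPA2 (-0.42, SE 0.162), each with an adjusted p of 0.935 from limma. The change in T-cell dogs minus that in B-cell dogs was tested directly. By limma 0 members and 0 of 14257 genes were lower (0%) or higher (0%), with 1 member and 2187 genes at an unadjusted p under 0.05. The median over members was 0.05, or 0.13 without dogs 029 and 038. It lay below 0 with equal FPKM sums (-0.15, with all genes at -0.25), without dog 034 (-0.10), without dog 033 (-0.03) and without dog 028 (-0.03), so that its direction was not stable. The lowest adjusted p was that of ORC2, with a difference of 0.62 (SE 0.244, adjusted p = 0.275 from limma).

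The last comparison was of T-cell with B-cell dogs at each timepoint. Before treatment, 30 of 34 members had lower mean values in the T-cell dogs, with a median difference of -0.22. Without dog 038 the median was -0.07, with 18 of 34 below 0, without dog 029 it was -0.39, with 31 below 0, and without both it was -0.22, with 25 below 0. With all dogs 0 members were called lower and 0 higher by limma, with adjusted p from 0.0829 to 0.982. Over all 13565 genes, limma called 33 lower (0.243%) and 16 higher (0.118%), with 3051 at an unadjusted p under 0.05 and a median difference of -0.02. Among the members, 8 had an unadjusted p under 0.05, all lower in T-cell dogs: FEN1, ORC1, RFC2, GINS4, TIMELESS, GINS2, RPA2 and ORC2.

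FEN1 had 10.6, 8.005 and 12.6 FPKM in T-cell dogs 028, 036 and 038, against a lowest, median and highest value of 6.67, 23.4 and 36.3 FPKM in the B-cell dogs. The lowest B-cell value was that of dog 029, and the next was 16.6 FPKM, so that only dog 029 overlapped with the T-cell dogs. The difference was -0.98 (SE 0.369, adjusted p = 0.139 from limma). ORC1 had 11.8, 7.82 and 7.72 FPKM in the T-cell dogs, against 3.77, 22.9 and 29.3 FPKM in the B-cell dogs, and RFC2 had 19.003, 18.5 and 27.7 FPKM, against 14.7, 49.2 and 56.4 FPKM. In both genes dog 029 was again the 1 B-cell dog at or below the T-cell values. Their differences were -0.96 (SE 0.428, adjusted p = 0.202 from limma) and -0.91 (SE 0.320, adjusted p = 0.120 from limma). The lowest adjusted p among the members was that of TIMELESS, with a difference of -0.68 (SE 0.2003, adjusted p = 0.0829 from limma), followed by GINS4 with -0.90 (SE 0.2804, adjusted p = 0.0897 from limma). TIMELESS had 7.64, 9.29 and 11.0 FPKM in the T-cell dogs and 10.6, 14.8 and 21.6 FPKM in the B-cell dogs.

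**Figure D5:**
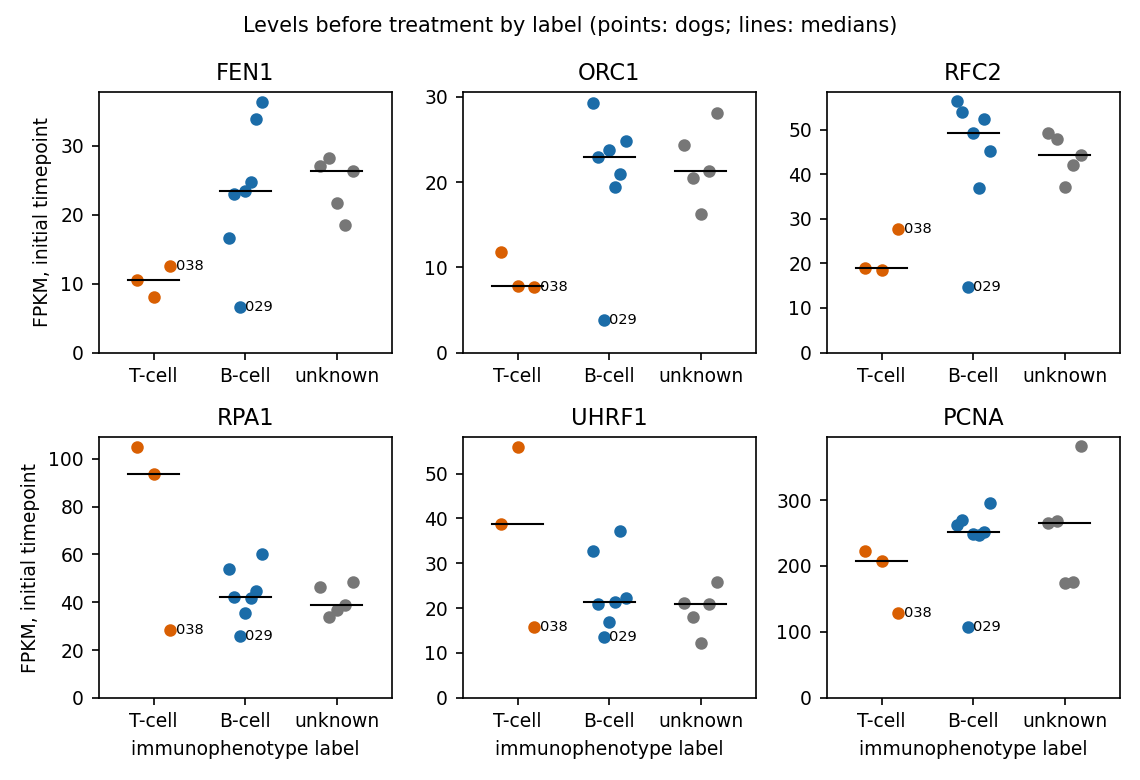
FPKM before treatment of 6 genes in dogs labelled T-cell, B-cell and unknown; points are dogs, lines are medians, and dogs 029 and 038, whose markers go against or blur their labels, are named. For FEN1, ORC1 and RFC2 dog 029 lies below all other B-cell dogs, and for RPA1 and UHRF1 dog 038 lies below the other T-cell dogs, at 28.4 and 15.9 FPKM.

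RPA1 and UHRF1 lay the other way in 2 of the T-cell dogs. RPA1 had 105, 93.8 and 28.4 FPKM in dogs 028, 036 and 038, against 25.9, 42.3 and 60.3 FPKM as lowest, median and highest value in the B-cell dogs, with a difference of 0.63 (SE 0.336, adjusted p = 0.276 from limma). UHRF1 had 38.7, 55.9 and 15.9 FPKM in the T-cell dogs, against 13.5, 21.4 and 37.3 FPKM in the B-cell dogs. For both genes dogs 028 and 036 lay above every B-cell dog and dog 038 within their range. RPA2, the partner of RPA1, had 46.2, 35.7 and 30.8 FPKM in the T-cell dogs and 29.5, 64.9 and 78.7 FPKM in the B-cell dogs, a difference of -0.64 in the other direction. PCNA, with 223, 208 and 129 FPKM in the T-cell dogs and 108, 252 and 295 FPKM in the B-cell dogs, had a difference of -0.35 (SE 0.316).

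Dogs 029 and 038 were left out because of marker values in these same libraries, so that the p-values below follow a choice made from the data. Without them, 2 T-cell and 6 B-cell dogs remained, and the unknown dogs stayed in the fit and added to the estimate of the spread. More genes were called over the whole table as well. By limma 9 members were then lower in T-cell dogs (FEN1, RFC2, ORC1, TIMELESS, POLD1, GINS4, RPA2, ORC5 and ORC2) and 2 higher (RPA1 and UHRF1), beside 13.6% of 13333 genes lower and 12.6% higher. RFC2 had -1.33 (SE 0.179, adjusted p = 1.97e-04), FEN1 -1.38 (SE 0.265, adjusted p = 0.00263), ORC1 -1.20 (SE 0.221, adjusted p = 0.00201) and RPA1 1.10 (SE 0.209, adjusted p = 0.00236), all from limma. The nucleotide genes TYMS and RRM1 had 0.09 (SE 0.255) and -0.15 (SE 0.216) and did not pass. Without dog 029 alone, 6 members were lower and 0 higher, beside 5.18% of 13376 genes lower and 5.05% higher. Without dog 038 alone, 2 members were lower and 2 higher, beside 9.60% of 13548 genes lower and 8.13% higher.

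At the six-week timepoint the median difference between T-cell and B-cell dogs was -0.33 over the members, with 24 of 34 below 0. By limma 0 members were lower and 0 higher, and 0 had an unadjusted p under 0.05. Over all 15346 genes, limma called 0 lower (0%) and 0 higher (0%), with 1271 at an unadjusted p under 0.05 and a median difference of -0.09. FEN1 had 14.5, 7.68 and 10.8 FPKM in T-cell dogs 028, 036 and 038, against 5.67, 19.8 and 27.1 FPKM as lowest, median and highest value in the B-cell dogs, where both dogs 029 and 034 now lay below 7 FPKM. The lowest adjusted p was that of TIMELESS, with a difference of -0.57 (SE 0.301, adjusted p = 0.630 from limma). Without dog 038 the members' median was -0.01, with 17 of 34 below 0, and without dogs 029 and 038 it was -0.17. Whether the difference between labels changed with time is the T-cell minus B-cell change given above, for which 0 members passed.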

How the data were processed

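RNA-seq libraries (single 75 bp reads) of 15 dogs at both timepoints were used. Per the study's methods the authors aligned reads with HISAT2 to CanFam3.1 and quantified genes with StringTie and Ensembl annotation 104. The sample records give the versions as HISAT2 2.1.0 and StringTie 1.3.3. The deposited FPKM values, normalized by the authors for transcript length and library size, were the main measure. The deposited counts, raw reads per gene from the authors, were used as alternatives in the 9 dogs whose counts ranked genes like the FPKM (Spearman correlation over 0.5). Precision of the FPKM was taken from the spread between dogs.

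Genes with a mean FPKM over 1 were tested on log2(FPKM + 1) with limma 3.58.1 (trend, R 4.3.3), with Benjamini-Hochberg adjustment over all genes and a threshold of 0.05. Changes over time had the dog as a block, since both samples came from the same animal. The deviations of a dog's samples correlated with a median of 0.601, over 0.1 in 14 of 15 dogs. The exception was dog 025, with -0.114. In only 9 of the 15 dogs was the best-correlated six-week library the dog's own. The pair of dog 031_032 was joined by elimination and correlated with 0.344. T-cell and B-cell dogs were compared at each timepoint in a fit of 15 libraries. Alternatives were a pseudocount of 0.1, no filter, a filter at 5 FPKM, equal FPKM sums (TPM), quantile normalization, no block, single dogs left out, and edgeR 4.0.16 and DESeq2 1.42.0 on counts of 9 dogs. The fits were tested on simulated data.

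Symbols were matched to gene IDs through the study's supplementary tables of test results. The copies used here were cut and held the genes of smallest p-value. The members and gene lists were chosen with earlier results of these data known. Genes described in full were PCNA, RRM2, TYMS, the 10 members with the largest differences over time in all dogs and the 3 with the largest between labels at the initial timepoint. Other members are given by role.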

Additional observations from a re-analysis of the deposited data

Results flagged for a closer look

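At the initial timepoint, dog 029 stood apart from the other 6 dogs labelled B-cell in 7 of the genes described in full and in the mean over the members. The gap from the end value of a group to the next dog was set against the range, by a criterion that chance meets in about 1 in 20 groups. Of 52 groups 8 met it, all of them through the same library of this dog. The 8 are 7 genes and the mean that includes them. They are not independent, so that their number cannot be compared with the rate of 1 in 20. On the log2(FPKM + 1) scale dog 029 had 6.77 for PCNA, with the other B-cell dogs at 7.95 to 8.21, and 3.83 for TYMS, with the others at 4.75 to 5.01. It had 2.91 for CLSPN (others 4.68 to 5.27), 3.51 for ORC6 (others 5.38 to 6.29), 2.25 for ORC1 (others 4.36 to 4.92), 2.19 for CDC45 (others 3.49 to 4.31) and 3.98 for RFC2 (others 5.25 to 5.84). The mean over the members was 3.71, with the others at 4.64 to 4.87. The T-cell marker mean of this dog was 5.96, and the part of its cell mix in these values was not tested.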

How the results depend on the processing

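Each result was set against its main value under each alternative. For the summary results, 304 such comparisons had an equal or similar count, or a median that shifted by less than the SD between dogs, and 8 moved further. Direction was not part of this rule, so that medians that crossed 0 are among the 304. For single genes, 354 comparisons kept their direction and side of the threshold, 15 newly passed and 7 reversed. For the change over time in all dogs, 4 members were called lower without the filter, against 0, beside 0.116% of all genes lower and 9.43% higher. By DESeq2 on 9 dogs, 17 members were called lower, beside 2.31% of genes lower and 14.3% higher. With no replicate block, 0 members were called, as with it, and 4 had an unadjusted p under 0.05, against 20 with the block. The unadjusted p-values thus depended on the pairing. The median stayed at -0.32, as it must when every dog has both timepoints. The T-cell change had a median of -0.57 with equal FPKM sums. Between labels at the initial timepoint, 9 members were lower and 2 higher without dogs 029 and 038, beside 13.6% of all genes lower and 12.6% higher. Leaving out single dogs gave 0 to 6 lower (6 without dog 029, beside 5.18% of genes) and 0 to 2 higher (2 without dog 038, beside 8.13% of genes). In the other 6 dogs the differences over time of TYMS (0.0883), ORC6 (0.0560), UHRF1 (0.23), ORC1 (0.0537), LIG1 (0.0276), RFC2 (0.0093) and FEN1 (0.12) lay above 0. The cause was not tested in any of these. The limits are 3 T-cell dogs, labels that the markers of dogs 029 and 038 blur or go against, gene IDs for 34 of 46 members, and FPKM whose sums differed between libraries.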

Other observations

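Single dogs held large changes that the member medians do not show, picked here after their values were seen. In dog 030, CHAF1A was at 36.4 FPKM at 6 weeks, against 12.98 FPKM before treatment, and UHRF1 at 36.4 against 16.9 FPKM, while its median change over members was 0.02. In dog 036, LIG1 was at 6.79 FPKM at 6 weeks, against 37.5 FPKM, UHRF1 at 11.6 against 55.9 FPKM, and ORC2 at 103 against 38.9 FPKM. DNA2 in dog 038 was at 9.04 FPKM at 6 weeks, against 4.44 FPKM, with 27 of 34 members lower. Each is 1 library against 1, with no replicate.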
